A study of Homo sapiens with 58 samples.

Results

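The genes described here are 4 gap junction connexins (GJA1, GJB2, GJB5 and GJC1), the pannexin PANX1 and the caveolins CAV1 and CAV2, which makes 7 of the 19798 genes that the array's single-gene probe sets name. They were chosen by their measured levels across these same cell lines, so their levels, spread and likeness are given as a description, with no test. Messenger RNA was measured in 58 established human cell lines, all labelled breast cancer, grown by the vendor's instructions and left untreated, with 1 custom Affymetrix array per line. The labels set up no groups, no line was measured more than 1 time, and the labels do not say which plate a sample was processed in. The lines differ in known ways that the labels leave out. Among others, MCF12A and HMT3522S1 are known as non-malignant breast epithelium, so the label breast cancer does not hold for every line. A non-breast origin is reported for MT3 and for MDAMB435S, M4A4 and NM2C5, the lines of MDAMB435.

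Levels are log2 intensities, so a difference of 1 is a factor of 2. Array medians lay between 5.37 and 5.58. A level up to 5.58, the 95th percentile of 616 probe sets for viral sequences, is called background here. Each array reads a whole culture, so fewer cells that express a gene and less RNA per cell cannot be told apart. Some lines share a patient or a parent line by general knowledge (AU565 with SKBR3, the 3 lines of MDAMB435, MB157 with MDAMB157, EFM192A, B and C, VP229 with VP267, and HMT3522S1 with HMT3522T42). These 14 lines were averaged to 6 units, which gives 50 units in all, and the spread inside the 6 sets is the nearest thing to replicate error. Detected means higher than the median of the array in 3 units or more, and this held for 14651 of all genes, 74.0%, with the 7 described here among them.

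The labelled cell type was checked against marker genes. KRT18, an epithelial keratin, was above background in all 58 lines, while CDH1 and EPCAM, an epithelial cadherin and adhesion molecule, were both at background in 5 lines, HCC1395, HS579MG, HS605T, MDAMB435S and NM2C5. Taken singly, CDH1 was at background in 12 lines and EPCAM in 6. Of the other epithelial markers, ESRP2 was above background in 58 lines, KRT19 in 53, CLDN7 in 48, ESRP1 in 45, CLDN4 in 41 and RAB25 in 40. Per line, 3 to 9 of the 9 epithelial markers were above background. The melanocyte genes measured were above background in 5 of 5 cases in M4A4 and NM2C5 and in 4 of 5 in MDAMB435S. PTPRC, the leukocyte antigen CD45, was at background in all 58 lines, as was the muscle gene DES. Other genes of the same marker lists differed. The smooth muscle genes MYH11, TAGLN, ACTA2 and CNN1 were above background in 58, 52, 47 and 7 lines. The count for MYH11 depends on the background level and does not show expression in every line. Its lowest level was 5.76, its median 6.22 and its SD over units 0.41. That median lies under 6.50, the stricter background given below for GJB5. Of the blood genes, CD14 was above it in 33 lines, LAPTM5 in 16, IKZF1 in 5 and CD3E in 0. MB157 and MDAMB157, reported as the same line, did not resemble each other. Over the 5004 detected genes with an SD of 1 or more, each centred on its mean, r between them was 0.29, and MDAMB157 was closer to 9 other lines, with HS578T nearest at 0.40, whereas the lines of the other 5 sets had an r of 0.47 to 0.92 with each other and were each nearest to a line of their own set. The counts of lines, the SDs, the clusters and the r between the 7 genes or with scores were therefore computed without this pair too, and a lost split or a printed r that moved by 0.06 or more is given beside the value.

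Connexins are the subunits of gap junction channels. A ring of them in one membrane docks onto a ring in the next cell, and ions and small metabolites pass from cell to cell. In the breast, GJA1 is known from the basal and myoepithelial cells and from fibroblasts, and GJB2 from the luminal cells. Pannexins have a similar topology but mostly form channels to the outside, through which ATP is released. Caveolins are hairpin proteins that bend the membrane into caveolae, and cavin proteins complete their coat. CAV2 is known to need CAV1 to reach the cell surface.

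The stretches upstream of the start sites are shown for GJA1, the connexin with the widest range, and for the caveolin neighbours CAV1 and CAV2, whose levels moved together. They are the 150 bases before the annotated start, read 5′ to 3′ in the gene's direction, from RefSeq on the GRCh38.p14 build. Capitals mark an AP-1 motif (TGANTCA) in GJA1 and GC boxes (GGGCGG or its reverse complement) in the caveolins.
GJA1, chr6:121435496-121435645, plus strand: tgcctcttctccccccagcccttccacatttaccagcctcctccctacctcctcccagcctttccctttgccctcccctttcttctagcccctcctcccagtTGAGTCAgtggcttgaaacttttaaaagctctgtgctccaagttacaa
CAV1, chr7:116524859-116525008, plus strand: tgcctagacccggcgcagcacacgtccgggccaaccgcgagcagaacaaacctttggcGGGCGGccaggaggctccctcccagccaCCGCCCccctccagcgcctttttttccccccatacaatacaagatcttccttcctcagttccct
CAV2, chr7:116499588-116499737, plus strand: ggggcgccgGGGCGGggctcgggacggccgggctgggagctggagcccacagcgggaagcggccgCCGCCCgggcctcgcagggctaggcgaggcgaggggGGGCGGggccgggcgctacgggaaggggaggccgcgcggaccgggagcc

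The windows differed in base composition. Over 300 bases around the start, GC content was 47% for GJA1, 62.3% for CAV1, 82.7% for CAV2, 71.7% for GJB2 and 62.3% for PANX1, beside a median of 58.3% over 27303 RefSeq promoters. The GJA1 window held 3 CpG pairs and that of CAV2 held 43, beside a median of 13. Both strands were searched. An AP-1 motif lay 48 bases before the start of GJA1 and in 7.72% of all promoters. Counted over the 300 bases, GC boxes numbered 3 for CAV1, 6 for CAV2, 3 for GJB2 and 1 for PANX1, and 44.5% of all promoters held at least 1. The PANX1 window also held a TEAD motif (GGAATG, in 14.1% of all promoters) and 4 ETS motifs (CCGGAA, in 17.6%), which overlap in pairs. The GJB2 window held CACCTG, the E-box bound by ZEB and SNAI factors, across the start (in 20.6% of all promoters). Such matches are letters in a window, not sites. Of the 7 genes, 5 matched the promoter table, and GJB5 and GJC1 are only named.

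**Figure D1:**
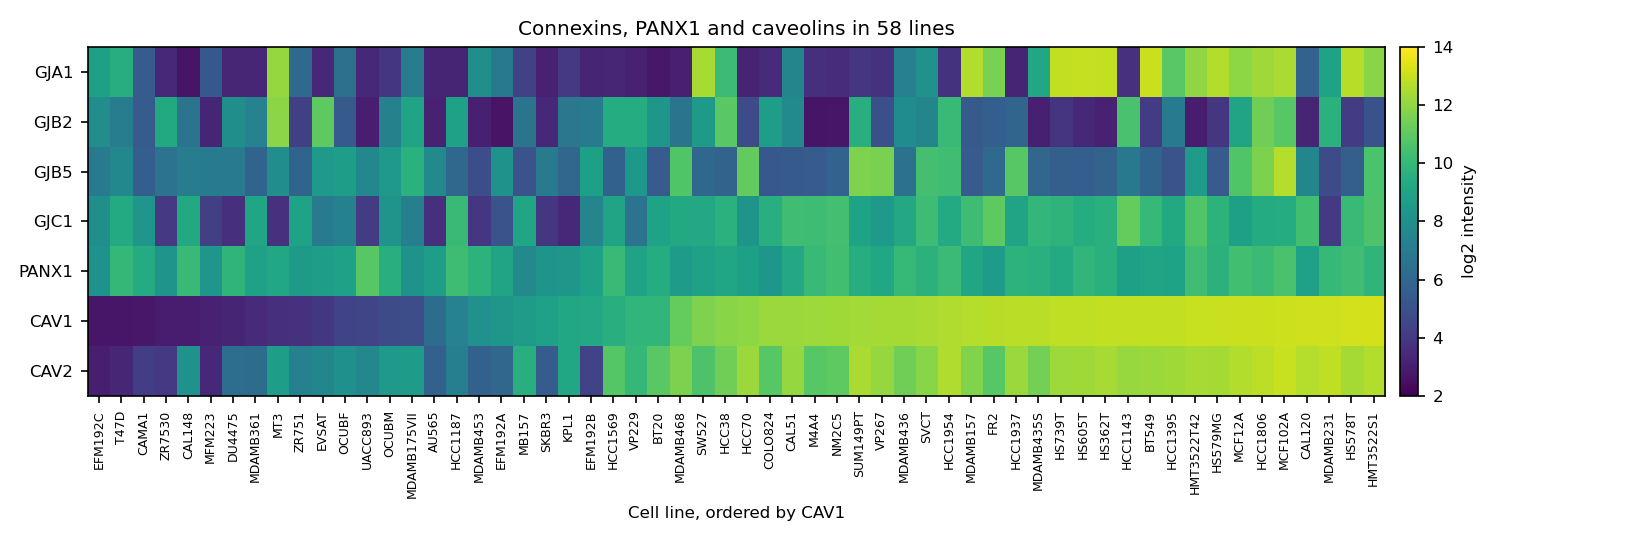
Level of each gene (rows) in each of the 58 lines (columns, ordered by CAV1 from left to right), with colour for the log2 intensity from 2 to 14. CAV1 runs from 2.73 in EFM192C to 13.24 in HMT3522S1, CAV2 follows it, PANX1 is nearly even, and GJA1, GJB2, GJB5 and GJC1 each form another pattern.

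GJA1, the most widely expressed human connexin, lay on a flat floor in many lines and spread widely in the others. Its level was lowest in CAL148 at 2.68, had a median of 5.93 and was highest in BT549 at 13.04, at least 176-fold above background. Here and below, a fold is a bound against the background level of 5.58 where the lower value is at background. GJA1 was above background in 30 lines and at background in 28. The highest levels after BT549 were in HS605T (12.96), HS739T and HS362T (both 12.89), HS578T (12.73), HS579MG (12.64), MDAMB157 (12.62), MCF102A (12.47), SW527 (12.41), HCC1806 (12.30) and MT3 (12.09). HMT3522T42 (11.99), MCF12A (11.97), HMT3522S1 (11.87), FR2 (11.57), HCC1395 (10.93) and HCC38 (10.21) came next. HS605T, HS739T, HS362T, HS578T and HS579MG had all 8 stromal (fibroblast) markers above background, whereas MT3 had 1 of 8 stromal and 9 of 9 epithelial markers. In the middle stood T47D at 9.48, MDAMB435S at 9.20, MDAMB231 at 8.98 and EFM192C at 8.81. At the lower end, 25 lines lay under 4, among them BT20 (2.76), MDAMB468 (3.06), SKBR3 (3.10), HCC70 (3.18) and HCC1937 (3.22).

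GJB2, a connexin of secretory and stratified epithelia, ran over a continuum. Its level was lowest in EFM192A at 2.64, had a median of 6.68 and was highest in MT3 at 11.92, at least 81-fold above background, and 33 lines were above background. Next came HCC1806 (11.39), EVSAT (11.02), HCC38 (10.91), MCF102A (10.90), HCC1143 (10.55) and HCC1954 (10.14). All 5 lines HS578T (4.10), HS579MG (3.91), HS739T (3.82), HS605T (3.32) and HS362T (3.12) were at background, as were BT549 (4.09), M4A4 (2.66), NM2C5 (2.71), UACC893 (3.02), SKBR3 (3.36) and AU565 (3.12).

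GJB5, a connexin of stratified epithelium and trophoblast, reached high levels in some lines. Its level was lowest in MDAMB231 at 4.78, had a median of 6.87 and was highest in MCF102A at 12.67, at least 136-fold above background. SUM149PT (11.67), HCC1806 (11.62), VP267 (11.60), HCC70 (11.11), HCC1937 (10.86), MDAMB468 and MCF12A (both 10.73), HMT3522S1 (10.60), SVCT (10.47) and HCC1954 (10.31) followed. This probe set has a floor near the background level, with 26 lines between 4.78 and 6.08, so the 48 lines counted above background depend on that level. With the 99th percentile of the same viral sequences, 6.50, as background, the count was 31. HS578T (5.64), BT549 (5.86) and HS362T (5.80), which had much GJA1, lay at that floor.

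GJC1, a connexin of smooth muscle and early heart, was above background in most lines. Its level was lowest in KPL1 at 3.34, had a median of 9.17 and was highest in HCC1143 at 11.15, at least 47-fold above background. It was above background in 47 lines, of which 41 lay between 8 and 12, with FR2 (11.04), HMT3522T42 (10.72), HMT3522S1 (10.65) and NM2C5 (10.42) next to the top. The 11 lines at background were EFM192A (5.06), MFM223 (4.26), UACC893 (4.13), MDAMB231 (4.05), ZR7530 (3.99), SKBR3 (3.90), MDAMB453 (3.89), MT3 (3.72), AU565 (3.66), DU4475 (3.61) and KPL1. Its 2 other probe sets had a narrower SD, 0.82 and 1.04, with an r of 0.74 and 0.86 to the one used, so the low level rests on that probe set. Of the 11 lines, 7 were above background on 1 of the other probe sets (5.32 to 6.21 over the 11), on which the other 47 lines lay between 5.81 and 9.44.

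PANX1 was present in all 58 lines. Its level was lowest in MB157 at 7.64, had a median of 9.30 and was highest in UACC893 at 10.86, a range of 9-fold. MCF102A (10.57), NM2C5 (10.36) and MCF12A (10.35) followed UACC893, and EFM192C (8.13), MDAMB175VII (8.16) and ZR7530 (8.21) came just above MB157. Its SD over units, 0.71, was close to the median SD of detected genes, 0.70.

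CAV1, which builds caveolae, had the wider spread of the caveolins. Its level was lowest in EFM192C at 2.73, had a median of 11.92 and was highest in HMT3522S1 at 13.24, at least 202-fold above background. It was above background in 43 lines, and 28 of these lay at 12 or more, from COLO824 at 12.19 upward. HS578T (13.16), MDAMB231 and CAL120 (both 13.11), MCF102A (13.08), HCC1806 (13.03) and MCF12A (13.02) stood next to the top. The 15 lines at background were EFM192C, T47D (2.74), CAMA1 (2.76), ZR7530 (2.92), CAL148 (2.96), MFM223 (3.12), DU4475 (3.25), MDAMB361 (3.43), MT3 (3.66), ZR751 (3.72), EVSAT (3.96), OCUBF (4.42), UACC893 (4.52), OCUBM (4.79) and MDAMB175VII (4.82). All 3 lines derived from MDAMB435 had it, at 12.76 in MDAMB435S, 12.28 in NM2C5 and 12.24 in M4A4.

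CAV2, its partner, was lowest in EFM192C at 3.03, had a median of 10.91 and was highest in MCF102A at 12.98, at least 168-fold above background. It was above background in 51 lines, with MDAMB231 (12.84), HCC1806 (12.81), CAL120 (12.68) and MCF12A (12.62) after MCF102A. The 7 lines at background were SKBR3 (5.5), EFM192B (4.46), CAMA1 (4.19), ZR7530 (4.01), MFM223 (3.34), T47D (3.27) and EFM192C. The 3 probe sets of each caveolin followed each other, with an r of 0.97 to 0.98 to the one used.

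Members close to the background level are listed once. The nearest lines below and above it were CAMA1 (5.48) and CAL120 (5.78) for GJA1, FR2 (5.58) and HCC1937 (5.93) for GJB2, M4A4 (5.44) and CAMA1 (5.59) for GJB5, and EFM192A (5.06) and VP229 (6.57) for GJC1. For CAV1 they were MDAMB175VII (4.82) and AU565 (6.23), and for CAV2 SKBR3 (5.5) and AU565 (5.70).

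**Figure D2:**
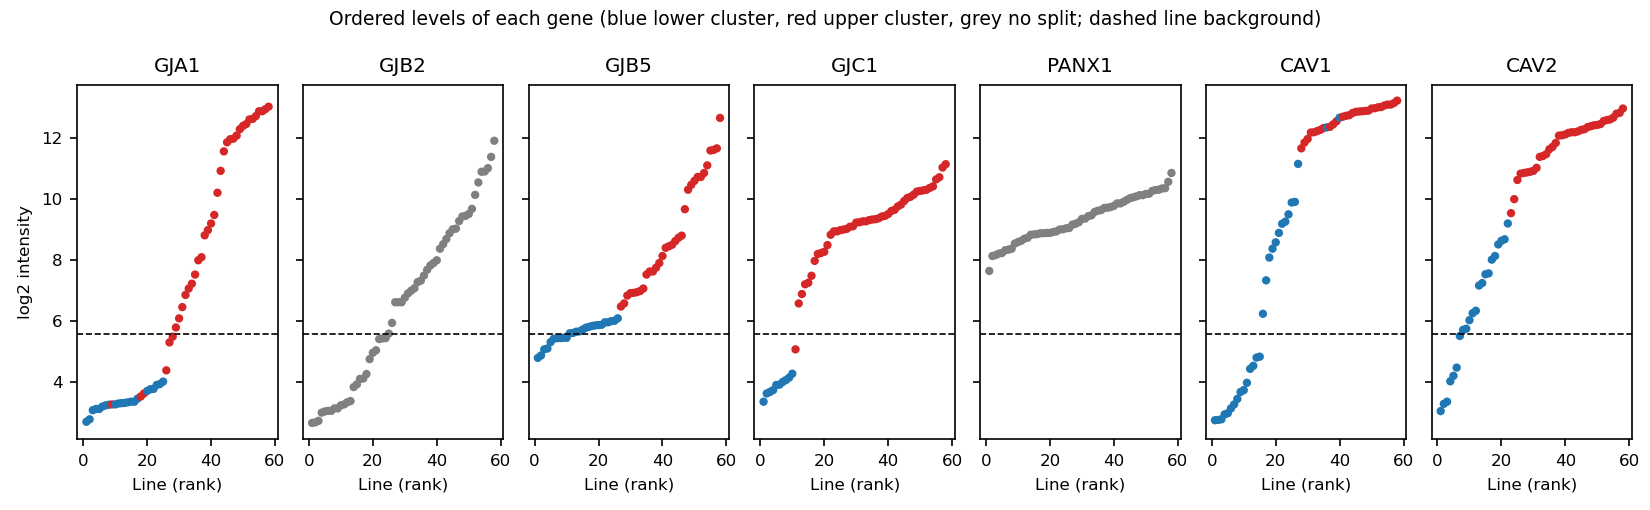
The 58 lines ordered by level for each gene (horizontal axis, rank of the line, vertical axis, log2 intensity). Blue and red points are lines whose unit fell in the lower or upper cluster, grey marks genes with no split, and the dashed line is background at 5.58. GJA1 has a flat floor and a long rise, CAV1 a broad rise and a flat top, GJC1 a step between 5.06 and 6.57, and PANX1 no step.

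The steps between neighbouring lines in these orders can be set beside the spread inside the sets of common origin, though steps among 58 sorted values are small by construction (medians of 0.03 to 0.13). The spread (SD) was 2.99 for GJA1, 1.89 for GJB2, 1.08 for GJB5, 0.97 for GJC1, 0.50 for PANX1, 2.24 for CAV1 and 1.08 for CAV2. Of the 57 steps between neighbours, GJC1 had 1 that exceeded its spread, from EFM192A to VP229, and the other genes had 0. Without the pair MB157 and MDAMB157 the spread was 2.31 for GJA1, 2.0 for GJB2, 1.15 for GJB5, 0.99 for GJC1, 0.38 for PANX1, 2.13 for CAV1 and 0.99 for CAV2, and PANX1 (MB157 to EFM192C, 0.49) and CAV2 (EFM192B to SKBR3, 1.04) then had 1 such step each.

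An SD over units of 1 or more was found in 6 of the 7 genes, all but PANX1, and in 34.2% of detected genes. The genes were chosen for this variation, so nothing is read from that count. The SD was 3.98 for CAV1, 3.80 for GJA1, 2.95 for CAV2, 2.66 for GJB2, 2.29 for GJC1 and 2.17 for GJB5. CAV1 ranked 4 and GJA1 ranked 7 by SD among all detected genes. Without the 4 lines HS362T, HS579MG, HS605T and HS739T the SD of GJA1 was 3.54, and with the mean of its 3 probe sets that of GJC1 was 1.28.

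By a mixture of 2 normal components, 5 of the 7 genes fell into separate clusters, as did 17.3% of detected genes, again a description of genes picked for their spread. GJA1 had 20 units around 3.37 (SD 0.35) and 30 around 9.62 (SD 2.84), so its lower cluster was narrow and its upper one broad. CAV1 was the reverse, with 24 units around 5.93 (SD 2.99) and 26 around 12.67 (SD 0.43). CAV2 had 19 units around 6.52 and 31 around 11.92, GJC1 had 9 around 3.86 and 41 around 9.24, and GJB5 had 23 around 5.59 and 27 around 8.96. GJB2 and PANX1 did not split. The cut was sharp for GJC1, between MFM223 at 4.26 and EFM192 at 6.83, and narrow for CAV1, between MDAMB468 at 11.16 and SW527 at 11.67. Without the 4 lines named above the cut of GJB5 moved up, to 33 and 13 units, with all 58 lines as units GJB2 split as well, and with the mean of its probe sets GJC1 did not split. Without MB157 and MDAMB157 GJB5 did not split (Ashman's D, the distance between the components, was 1.71 in place of 2.11), while the other 4 genes were cut between the same units.

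The caveolins moved together. Both were above background in 41 lines and neither in 5, namely CAMA1, EFM192C, MFM223, T47D and ZR7530. All 26 units in the upper cluster of CAV1 were in the upper cluster of CAV2, where r between their levels was 0.70 (Spearman rho 0.76). Of the other units, 19 were in the lower cluster of both, with an r of 0.27, and 5 were in the upper cluster of CAV2 alone. Each r here describes units measured 1 time each with values normalized in the same way, and carries no p.

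The caveolins also came apart, mostly with CAV2 alone. In 10 lines CAV2 was above background while CAV1 was not. CAV2 was above background in 51 lines on the probe set used but in 44 and 39 on its others, so this count depends on the probe set. The levels of CAV1 and CAV2 were 2.96 and 8.13 in CAL148, 3.66 and 8.68 in MT3, 4.79 and 8.51 in OCUBM, 4.82 and 8.63 in MDAMB175VII, 3.96 and 7.53 in EVSAT, and 4.52 and 7.56 in UACC893, with DU4475, MDAMB361, OCUBF and ZR751 the other 4. The opposite was seen in 2 lines, with CAV1 at 8.89 and CAV2 at 5.5 in SKBR3, just under background, and 9.26 and 4.46 in EFM192B. In these 12 lines CAVIN1, a coat protein that caveolae need, lay between 3.66 in DU4475 and 6.61 in OCUBF. CAVIN3, another cavin, lay between 4.66 in CAL148 and 7.58 in EFM192B. The caveola neck gene EHD2 varied widely, from 4.47 in DU4475 to 10.72 in SKBR3, 10.88 in MDAMB175VII and 12.11 in ZR751.

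**Figure D3:**
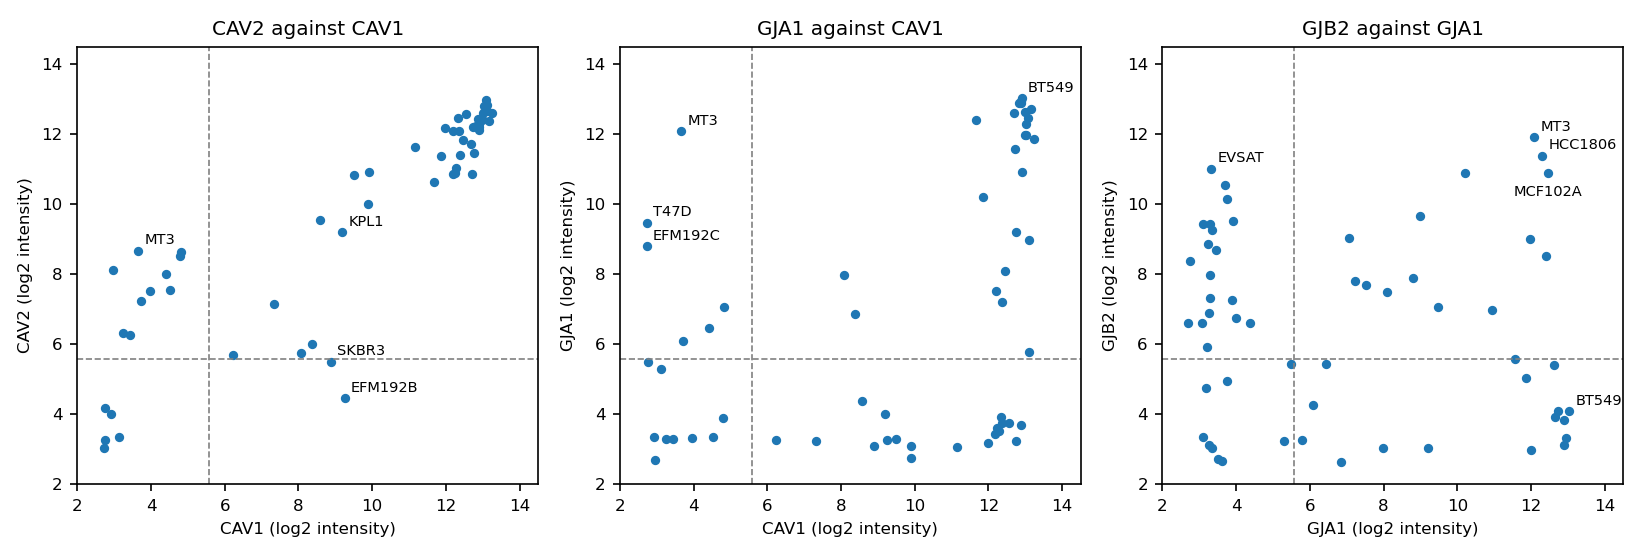
Each point is 1 of the 58 lines, with log2 intensities on both axes and dashed lines at background, 5.58. CAV2 against CAV1 shows lines with CAV2 alone at the left, such as MT3 (3.66 and 8.68), and SKBR3 and EFM192B with CAV1 alone. GJA1 against CAV1 shows MT3 and T47D with GJA1 but no CAV1, and GJB2 against GJA1 shows lines in every combination.

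The connexins occurred in many combinations. GJA1 and GJB2 were both above background in 14 lines, GJA1 without GJB2 in 16, GJB2 without GJA1 in 19, and neither in 9. MT3 (12.09 and 11.92), HCC1806 (12.30 and 11.39) and MCF102A (12.47 and 10.90) had much of both, BT549 (13.04 and 4.09) and HS605T (12.96 and 3.32) had GJA1 alone, and EVSAT (3.32 and 11.02) and HCC1143 (3.69 and 10.55) had GJB2 alone. In the upper cluster of GJA1, r with GJB2 was 0.18 (n = 30). Among the 13 units in the upper clusters of both GJA1 and GJB5, r was 0.65, and 0.46 without the 2 units farthest from the median. It was 0.25 with only GJA1 in the upper cluster (n = 17), 0.23 with only GJB5 there (n = 14) and 0.44 with neither (n = 6). Without MB157 and MDAMB157 GJB5 had no such clusters.

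GJA1 and the caveolins overlapped in part. By cluster, 20 units were in the upper cluster of GJA1 and CAV1, 14 in the lower one of both, 10 in the upper one of GJA1 alone and 6 in that of CAV1 alone. The upper cluster of GJA1 is broad and holds 3 of its 30 units at background, CAMA1 (5.48), MFM223 (5.29) and the mean of the lines of MDAMB435. MT3 (GJA1 12.09, CAV1 3.66) and T47D (9.48 and 2.74) had GJA1 with CAV1 at background. HCC1143 (3.69 and 12.89), HCC1937 (3.22 and 12.74), HCC1954 (3.76 and 12.56), SUM149PT (3.92 and 12.34), COLO824 (3.44 and 12.19) and HCC70 (3.18 and 11.98) had CAV1 with GJA1 at background. In the upper clusters of both, r was 0.28 (n = 20). GJC1 was in its upper cluster in 25 of the 26 units in that of CAV1, the exception being MDAMB231, with GJC1 at 4.05 and CAV1 at 13.11. It was also in its upper cluster in 16 of the 24 units in the lower cluster of CAV1.

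PANX1 followed the caveolins in part of the lines. In the upper cluster of CAV2 r was 0.51 (rho 0.56, n = 31) and 0.39 without the 2 farthest units or 0.45 without MB157 and MDAMB157, and in the upper cluster of CAV1 it was 0.47 (n = 26). In the lower clusters r was 0.08 (n = 19) and -0.09 (n = 24, or -0.02 without the pair). Its r with GJB2 over all 50 units was 0.03.

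Counted by line, all 7 genes were above background in 7 lines, 6 in 21 lines, 5 in 21, 4 in 4, 3 in 4 and 2 in 1 line. That last line was MFM223, which had GJB5 (6.91) and PANX1 (8.32) only. These counts carry the uncertainty of the GJB5 floor. The share of all genes above background in each line is not given here, so no line is called unusual by its count.

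Lines of common origin differed in several of these genes. In the set EFM192, 5 of the 7 genes differed by at least 2 log2 units, beside 12.5% of detected genes. GJA1 was 6.85 in EFM192A, 3.25 in EFM192B and 8.81 in EFM192C, CAV1 was 8.37, 9.26 and 2.73, and GJB2 was 2.64, 6.90 and 7.90, so each line had its own combination. EFM192A had 6 of 8 stromal and 6 of 8 mesenchymal markers above background, beside 1 and 2 in EFM192C, and was 1 of the 3 arrays with the widest relative log expression (an interquartile range of 0.63). The part of these in the result was not tested.

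VP229 and VP267 differed by at least 2 in 4 of the 7 genes, beside 8.68% of detected genes. GJB2 was 9.43 in VP229 and 4.95 in VP267, at least 14.4-fold higher in VP229, while GJB5 (8.40 and 11.60), CAV1 (9.89 and 12.36) and CAV2 (by 2.10) were higher in VP267. Epithelial markers were above background in 9 of 9 cases in both lines and stromal markers in 1 of 8 in both. Other lists differed between VP229 and VP267, with a mean of 11.66 and 10.28 for luminal markers and 7.11 and 8.10 for fat cell markers. For blood markers it was 3.88 and 5.28. The part of these in the result was not tested.

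MB157 and MDAMB157 differed by at least 2 in 3 genes, beside 10.4% of detected genes. GJA1 was 4.37 in MB157 and 12.62 in MDAMB157, at least 131.1-fold higher, CAV1 was 8.58 and 12.68, and CAV2 9.54 and 11.72. MB157 had 9 of 9 epithelial and 2 of 8 stromal markers above background, MDAMB157 had 5 of 9 and 7 of 8, and MB157 too was among the 3 widest arrays. Whether these are the same line was not tested.

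In the set MDAMB435, 1 gene differed by at least 2, beside 6.76% of detected genes: GJA1 was 9.20 in MDAMB435S and 3.61 and 3.51 in M4A4 and NM2C5. The other 6 genes were within 0.74 log2 units of each other in all 3 lines. In MDAMB435S, M4A4 and NM2C5 in turn, stromal markers were above background in 3, 0 and 1 of 8 cases. The mean of the mesenchymal markers was 11.07, 9.75 and 9.11, and that of the melanocyte markers 9.44, 10.34 and 11.65. The part of these in the GJA1 difference was not tested. AU565 and SKBR3 also differed in 1 gene, CAV1, at 6.23 and 8.89, beside 2.82% of detected genes. HMT3522S1 and HMT3522T42, a non-malignant line and its malignant derivative, differed in GJB2 (5.03 and 2.98, both at background), beside 3.97%. Their GJA1 (11.87 and 11.99), GJC1 (10.65 and 10.72), CAV1 (13.24 and 12.98) and CAV2 (12.60 and 12.44) were nearly equal.

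**Figure D4:**
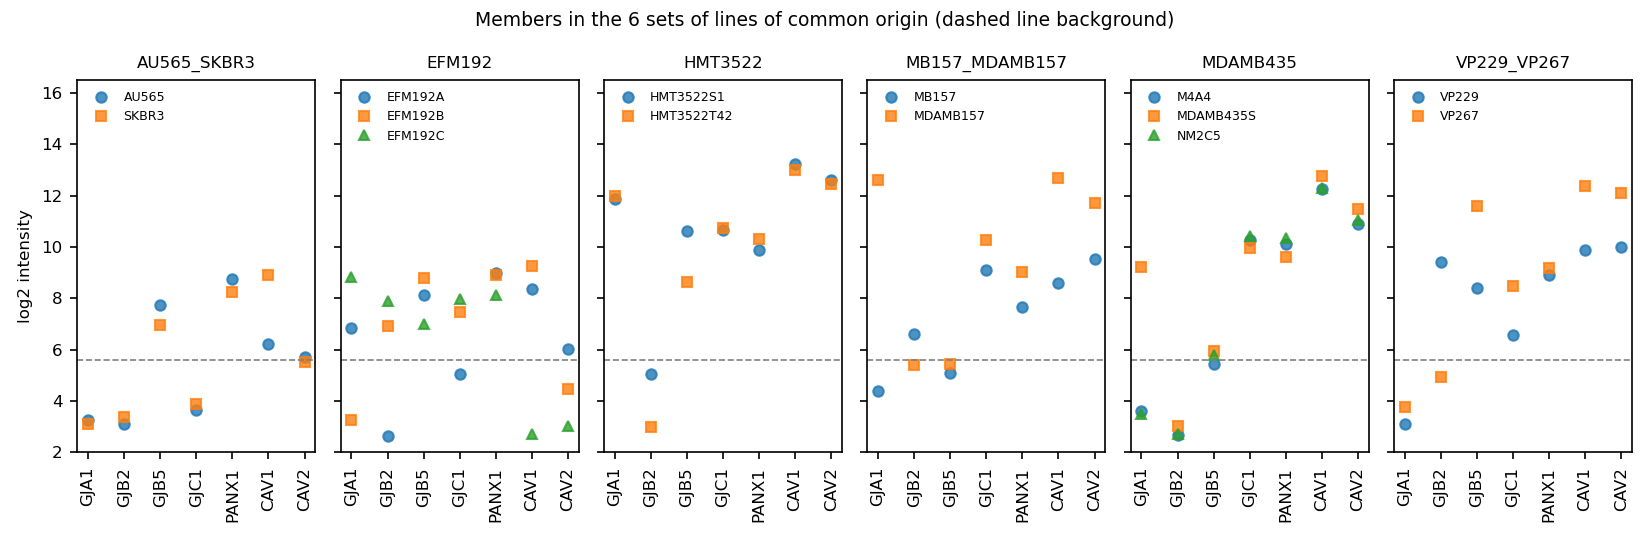
Log2 intensity of each gene (horizontal axis) in the lines of the 6 sets of common origin, with a symbol and colour per line and background (5.58) dashed. The lines of EFM192 are scattered over GJA1, GJB2 and CAV1, GJA1 separates MB157 from MDAMB157 and MDAMB435S from M4A4 and NM2C5, and the HMT3522 lines lie close together in all but GJB2 and GJB5.

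Scores of breast cell identity placed the genes differently. A score is the mean distance of a list's detected genes from their medians, and r is given inside clusters where a measure splits. In its upper cluster GJB5 rose with the basal score, made of KRT5, TRIM29, DSC3 and SFN, with an r of 0.76 (rho 0.71, n = 27), and in its lower cluster r was -0.11 (n = 23), on clusters not found without MB157 and MDAMB157. GJC1 in its upper cluster followed the mesenchymal score (r = 0.63, rho 0.67, n = 41) and opposed the luminal one (-0.57). In its lower cluster these r were 0.39 and 0.13 (n = 9). GJA1 in its upper cluster opposed the luminal score (r = -0.61, n = 30) and went with the mesenchymal score (0.47). In the lower cluster of GJA1 these r were 0.06 and 0.38 (n = 20). Where GJA1 and the stromal score were both in the upper cluster its r was 0.67 (n = 14), or 0.56 without the 2 farthest units. It was 0.03 with only GJA1 in the upper cluster (n = 16) and 0.29 with both in the lower (n = 20). For GJA1 and the epithelial score r was -0.64 with both in the upper cluster (n = 13), or -0.43 without the 2 farthest units. With only GJA1 in the upper cluster it was -0.35 (n = 17), and with only the score there -0.30 (n = 17). GJB2, which did not split, had an r of 0.41 with the basal, 0.10 with the luminal and -0.27 with the mesenchymal score (n = 50), and 0.48 in the lower (n = 20) and -0.48 in the upper cluster (n = 30) of the epithelial score. CAV1 followed the mesenchymal score in its lower (r = 0.51, n = 24, or 0.41 without MB157 and MDAMB157) and its upper cluster (0.45, n = 26), and its r with the basal score was 0.56 in the lower and -0.15 in the upper cluster, a difference that was not tested. CAV2 had an r with the mesenchymal score of -0.17 in its lower (n = 19) and 0.25 in its upper cluster (n = 31). For PANX1 r was -0.28 with the luminal, 0.20 with the mesenchymal and 0.14 with the basal score (n = 50). In the upper clusters of the epithelial and stromal scores it was -0.30 (n = 30) and 0.27 (n = 14, or 0.21 without MB157 and MDAMB157). In their lower clusters it was -0.21 (n = 20, or -0.13 without the pair) and 0.06 (n = 36). Markers of endothelium, which has many caveolae, were above background in 0 to 4 of 8 cases per line, and those of fat cells in 1 to 5 of 6.

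The genes most like each member were found by r over the 50 units, both clusters together. For CAV1 they were ETS1, a transcription factor (0.94), DPYD, the enzyme that breaks down pyrimidines (0.91), CAV2 (0.90), P3H2, a collagen prolyl hydroxylase (0.89), and COTL1, an actin-binding protein (0.87). Part of this is the split that the genes share: inside the lower cluster of CAV1 r with ETS1 was 0.84, and inside the upper one 0.41. In the same order it was 0.80 and 0.46 with DPYD, 0.76 and 0.31 with P3H2, and 0.77 and 0.16 with COTL1. The genes most like CAV2 were CAV1, ETS1 (0.88), DPYD (0.87), FOSL1, a subunit of AP-1 (0.86), and P3H2 (0.85). Inside the lower and upper clusters of CAV2, r was 0.12 and 0.21 with ETS1 and 0.22 and 0.62 with DPYD. With FOSL1 it was 0.51 and 0.52, and with P3H2 0.08 and 0.43. DEGS2, a ceramide enzyme (-0.87), the potassium channel gene KCNJ11 (-0.85) and CREB3L4 (-0.83) were lowest for CAV1, and CACFD1 (-0.82), KCNJ11 and DEGS2 (both -0.81) for CAV2. An r of at least 0.7 was reached by 93 detected genes for CAV1, 0.635%, and by 58 for CAV2, 0.396%.

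For GJA1 the leaders were STX2, a membrane fusion protein (0.75), HAS2, a hyaluronan synthase (0.73), MYDGF (0.73), EMP3 and ITGA5, a fibronectin receptor subunit (both 0.72), and the lowest were CLMN (-0.76), MB, the myoglobin gene (-0.74), and GRHL1, an epithelial transcription factor (-0.73). It had 9 genes at 0.7 or more, 0.0614%. GJB5 was most like SCEL (0.77), IL18 (0.72) and IVL (0.70), where SCEL and IVL encode sciellin and involucrin of the keratinocyte envelope, then MIG7 and TNS4 (both 0.69), and least like WDR48 (-0.59), ZNF521 (-0.57) and ANXA6 (-0.56). GJC1 was most like HYCC1 (0.73), DZIP1 (0.71), KIRREL1 (0.70), SERPINE2 and RFLNB (both 0.67), and least like RAB26 (-0.64), ATP2C2 and CORO1B (both -0.63). GJB5 and GJC1 each had 2 genes at or past 0.7 before rounding, 0.0137%.

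GJB2 and PANX1 had no gene at 0.7. GJB2 was most like MAP3K21 (0.65), B3GALNT2 (0.59), KLF5, an epithelial transcription factor (0.58), ANXA3 (0.55) and its own neighbour GJB6 (0.54), and least like RGS3, ZNF449 (both -0.57) and PKD1 (-0.56). PANX1 was most like MED17 (0.58), ZC3H12C (0.55), STK17A (0.54), TRIP10 and EVI2B (both 0.51), and least like ABCA3 (-0.53), MOAP1 (-0.52) and SYTL5 (-0.51). With Spearman rho in place of r, 1 of the 5 leading genes stayed for GJC1, 2 for CAV1 and 3 for each of GJA1, GJB2, GJB5, PANX1 and CAV2, so single names in these lists are not firm.

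Neighbours in the genome shared the pattern in a few places. MED17, next to PANX1 on chromosome 11, was the most like gene of all, and both were highest in UACC893, at 10.61 and 10.86. SNORA8, further out on that side, ranked 13 with an r of 0.49, and ANKRD49 on the other side had 0.39. CAV2 and CAV1 lie next to each other on chromosome 7, and MET, the receptor beyond CAV1, had an r of 0.73 with CAV1 and 0.74 with CAV2, while TES on the other side had 0.02 and 0.11, and CAPZA2 beyond MET had 0.17 and 0.25. MDFIC had 0.47 and 0.44. Inside the upper cluster of CAV1, r with MET was 0.45 and inside the lower one 0.49. On chromosome 13 GJB2 lies between the connexins GJA3 (0.17) and GJB6 (0.54), followed by CRYL1 (0.33) and IFT88 (0.15), with ZMYM2 (0.11) and ZMYM5 (0.17) on the far side.

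Around GJA1 on chromosome 6, PKIB stood at -0.69, FAM184A at -0.44, FABP7 at -0.30, ASF1A at -0.13, MAN1A1 at 0.06 and SERINC1 at 0.30. Around GJC1 on chromosome 17, DBF4B had 0.34, EFTUD2 and KIF18B 0.33, DNAAF19 0.24, CCDC43 0.14 and ADAM11 0.01. The neighbours of GJB5 on chromosome 1 ranged from -0.29 for CSMD2 to 0.05 for PHC2, with ZSCAN20, GPR199P, TMEM35B and ZMYM6 in between. The remaining neighbours were MRE11 (0.07), C11orf54 (-0.07) and C11orf97 (0.16) for PANX1, ST7-AS1 (-0.21) for CAV1 and SMIM30 (0.10) for CAV2.

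Of 13 other connexins and pannexins analysed, 8 were detected, beside 74.0% of all genes, and 5 had an SD of 1 or more, beside 34.2% of detected genes. GJA3 was highest in DU4475 at 10.85 and above background in 17 lines, and GJA5, a connexin of vessels and atria, was highest in BT20 at 11.24 and above background in 15. GJB1, the liver and Schwann cell connexin, was highest in M4A4 at 11.03 and above background in 10 lines, and GJB6 in HCC1806 at 10.68 and in 8 lines. GJC3 was highest in MB157 at 8.67, GJD3 in HMT3522T42 at 7.94 and GJD4 in SKBR3 at 5.91. PANX2 was above background in 51 lines, from 2.68 in EVSAT to 11.14 in HCC1395, and its r with PANX1 was 0.19. GJA4, GJA10, GJB7, GJD2 and PANX3 were not detected. DU4475 and BT20 were at the floor of GJA1, with 3.28 and 2.76.

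The 11 genes of the caveola coat and neck were all detected (74.0% of all genes were), and 5 of them had an SD of 1 or more (34.2% of detected genes did). CAVIN1 had an r of 0.86 with CAV1, rank 6 of all detected genes, and CAVIN3 had 0.80, rank 17. EHD2, an ATPase at the caveola neck (0.65), ROR1, a receptor that holds caveolins and cavins together (0.64), and CAVIN2 (0.62) followed. Inside the upper cluster of CAV1 r was 0.63 for CAVIN1, 0.58 for CAVIN3 and 0.51 for CAVIN2 and EHD2, and inside the lower one 0.68, 0.57, -0.01 and 0.23. Inside the upper cluster of CAV2 r was 0.53 for CAVIN1, 0.39 for CAVIN3, 0.52 for CAVIN2 and 0.55 for EHD2. In its lower cluster these values were -0.11, -0.05, -0.31 and -0.30. For ROR1 r was 0.27 in the upper and 0.45 in the lower cluster of CAV1, and 0.23 and -0.00 in those of CAV2. CAVIN1 ran from 3.66 in DU4475 to 11.15 in HS739T, CAVIN2 from 2.17 in HCC1569 to 10.49 in HMT3522T42, CAVIN3 from 4.66 in CAL148 to 11.78 in HS579MG and EHD2 from 4.47 in DU4475 to 13.24 in HS739T. CAV3, the muscle caveolin, was above background in 3 lines, led by HCC1937 at 8.16, and CAVIN4, the muscle cavin, in 5, led by HCC1187 at 7.32. EHD1, EHD4, PACSIN2 and PACSIN3 were above background in all 58 lines, with an SD of 0.47 to 0.80, and their r with CAV1 lay between -0.19 and 0.25.

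**Figure D5:**
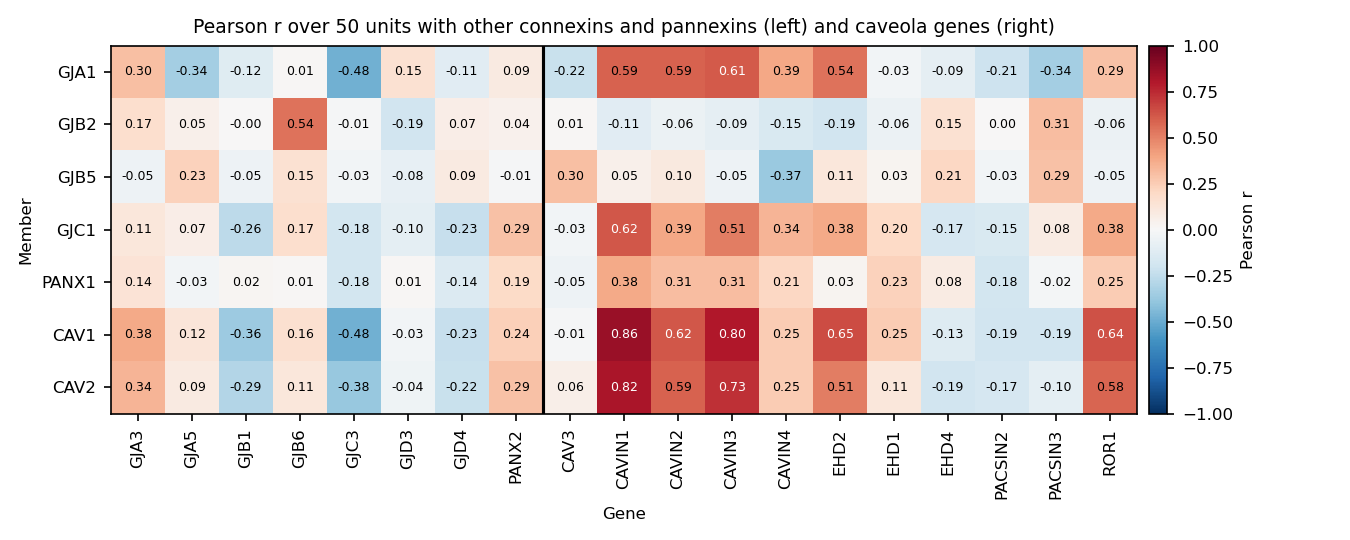
Pearson r over 50 units of each of the 7 genes (rows) with the detected other connexins and pannexins (left of the line) and the caveola genes (right), in colour from -1 to 1 and in figures. CAVIN1 (0.86) and CAVIN3 (0.80) stand out for CAV1, GJB6 (0.54) for GJB2, and PACSIN2 and PACSIN3 lie below 0 for both caveolins.

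Of 9 listed partner proteins of connexins, 8 were detected and 2 had an SD of 1 or more, beside the same 74.0% and 34.2%. They were the matricellular gene CCN3 (2.53) and the kinase gene SRC (1.02), whereas TJP1, the scaffold ZO-1, had 0.33. Of 5 pannexin partners 3 were measured, and the ATP receptor genes P2RX4 and P2RY2 were detected, with an r with PANX1 of -0.26 and -0.08. Of 7 factors known at connexin promoters, all were detected and 5 had an SD of 1 or more, again beside 74.0% and 34.2%. FOSL1 had an r of 0.86 with CAV1 and CAV2 and 0.52 with GJA1, JUN, its AP-1 partner, had 0.33, 0.27 and 0.24, and TFAP2C had -0.53 with GJA1.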

How the data were processed

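The authors deposited log2 intensities, made with RMA in Affymetrix Power Tools per the submitters' processing notes, which give no version. Whether all arrays were normalized together is not given in the sources used here. The table holds 52377 probe sets for 58 lines. Of these, 35184 name a single gene, 374 several and 16819 none, and only the first kind was used, with the probe set of the highest mean for each gene. No replicate, batch or depth is recorded, and the number of arrays limits the precision.

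The members, lists and thresholds were chosen with earlier results of these data known, so no test was made. Background is the 95th percentile of 616 probe sets named for viruses. Lines of common origin, taken from general knowledge and not the labels, were averaged to 50 units. A gene was split where 2 normal components gained more than 10 in BIC over 1, Ashman's D exceeded 2 and no cluster had fewer than 3 units. Correlations are Pearson's r and Spearman's rho across units, given as descriptions, in clusters of at least 6 units. The genes named were the members, the detected genes of the connexin and caveola lists, the 5 most and 3 least like genes and the 3 nearest detected neighbours on each side by RefSeq gene order. Other genes named were chosen after their values were seen. The steps were tested on simulated data. Python 3.11.15, pandas 2.3.3, scipy 1.17.1, R 4.3.3 and mclust 6.1.1 were used.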

Additional observations from a re-analysis of the deposited data

How the results depend on the processing

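Lines above background were counted for each of the 7 genes under 10 alternatives (mean of probe sets, cross-hybridising probe sets left out, a second quantile normalization, centred arrays, 4 choices of lines left out and 2 other background levels). Of the 70 counts, 69 stayed within 1.5 times the first, and the exception was GJB5 at the 99th percentile, 31 lines in place of 48. Many of the 69 could hardly have gone past that bound. Leaving out a few lines moves a count by no more than those lines, and GJA1 and GJB5 have 1 probe set each, so a mean changes nothing. Leaving out cross-hybridising probe sets changed no count. The 69 are therefore weak evidence of stability. The SD moved by more than its jackknife error in 2 of 63 cases, GJA1 without HS362T, HS579MG, HS605T and HS739T and GJC1 with the mean of probe sets, and the count of members with an SD of at least 1 was stable in all 10. The split by the mean of probe sets and the alternatives without MB157 and MDAMB157 were added after the data were seen. Of 514 likeness values 126 moved by more than their error, and of 35 comparisons of the 5 most like genes 10 changed 2 or more names. No paired analysis was possible because the labels give no groups or replicate numbers and no test was made.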
